A study of Mus musculus with 32 samples.

Results

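The Wnt genes examined here are the secreted Wnt ligands, the R-spondins, the Frizzled receptors, the Sfrp and Dkk inhibitors, and the transcription factors of the Tcf/Lef family, measured in mouse liver after partial hepatectomy and during embryonic growth. They were chosen by gene symbol: every gene on the array whose symbol begins with Wnt, Fzd, Sfrp, Dkk or Rspo and a number, or with Tcf7, together with Lef1. This gave 45 of the 18194 genes with a probe set of their own: 19 Wnt genes, 4 R-spondins, 10 Frizzled receptors, 4 Sfrp and 4 Dkk genes, 3 Tcf/Lef genes (Tcf7l1, Tcf7l2 and Lef1), and Fzd10os, a long non-coding RNA gene named for its position opposite Fzd10 and therefore no receptor. Tcf7 itself is not analysed here. The 45 genes have 89 probe sets. For the 28 genes with several, the probe set with the highest mean over the arrays stands for the gene unless another is named.

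Liver RNA of CD-1 mice was hybridised to 32 Affymetrix Mouse Genome 430 2.0 arrays in 16 groups of 2. Time 0 is liver of females aged 10 weeks, labelled as normal baseline. The operated groups are liver of females also aged 10 weeks, after surgical removal of 2/3 of the organ. They were taken at 9 times (1, 2 and 6 h, every 6 h from 12 to 30 h, and 48 and 72 h). At surgery the gallbladder was also taken, under ketamine and xylazine with buprenorphine afterwards. No sham-operated group is among the groups, so the operation and the loss of tissue cannot be told apart. The embryonic groups are microdissected liver at 6 stages: daily from 10.5 to 14.5 days after conception, and 16.5 days. Each array held a pool of at least 3 livers of different animals. For the embryonic samples the stage was read from the source name, since other fields give all 12 the same age or describe adult tissue. Nothing in the labels separates the 2 samples of a group beyond the pooling, so the tests below weigh differences only against the spread between such pools.

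Wnt proteins are lipid-bearing secreted signals that bind Frizzled receptors and the Lrp5 and Lrp6 coreceptors. In the canonical branch, binding stops the destruction of β-catenin, which enters the nucleus and acts with Tcf/Lef factors on target genes. R-spondins raise the number of receptors on the cell surface, Sfrp proteins bind Wnt ligands outside the cell, and Dkk1, Dkk2 and Dkk4 bind the coreceptors. In adult liver the pathway is known for the zonation of enzymes around the central vein, where endothelial cells secrete Wnt2, Wnt9b and Rspo3, and in the embryo for the growth of hepatoblasts.

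Levels below are deposited intensities on a linear scale. Differences are given as log2(intensity + 16), with values under 0 set to 0, and come from limma with 1 mean per group and Benjamini-Hochberg adjustment over all 18194 genes; a gene is called when its adjusted p is under 0.05. To show what a probe set reads without its target, 72 genes of sensory receptors were used, whose 95th percentile lay between 184.6 and 323.9 depending on the group. Only 18 of the 45 genes exceeded this background in any group and 27 in none. Those above it in every group were 8: Wnt6, Wnt7a, Wnt9b, Rspo3, Fzd10, Sfrp1, Sfrp5 and Tcf7l1. A further 6 exceeded it at 1 or more embryonic stages and in no adult group: Fzd1, Fzd2, Fzd5, Fzd7, Sfrp2 and Tcf7l2. Fzd3 and Fzd8 exceeded it in adult groups only. Fzd9 and Sfrp4 exceeded it in every adult group and at some of the stages. A level under this background may still vary between groups, but it is not shown to be a level of the gene's RNA.

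The arrays differed in ways that touch the results. The arrays of 10.5 days read much higher for part of a list of 8 genes of neighbouring organs. Their summed level was 13134 and 9669 there, 686 and 746 at 11.5 days, 2562 and 6256 at 12.5 days, between 932 and 1278 later, and between 411 and 708 in adult liver. Actc1 and Myl7, genes of heart muscle, made up most of it, with group means at 10.5 days of 5596 and 3469. Myh6 and Barx1 were also higher there, at 1705 and 395 against 98.4 and 92.7 at adult time 0. Tnnt2, also of heart muscle, Pdx1 and Nkx2-1 were not, at 49.0, 123 and 40.5 against 63.5, 147 and 41.1. Cdx2 was at 24.4 against 15.5. Whether this is RNA carried over from other organs was not tested. The sum of 13 stellate cell and mesenchyme genes was 12007 and 10240 at 10.5 days and between 5612 and 7430 later, and the sum of 7 genes of mesothelium and septum transversum was 1878 and 1835 at 10.5 days and was 686 and 764 at 16.5 days. The sum of 6 hepatocyte genes went the other way, from 8507 and 8174 at 10.5 days to 28224 and 28636 at 16.5 days, against 26645 to 48992 in adult liver. Over all genes, the log2 values of a group's arrays differed from each other with an SD that was highest at 48 h (0.741) and at 10.5 days (0.534), and between 0.284 and 0.497 in the other groups. The log2 ratio of 3′ to 5′ probe sets, a sign of RNA quality, was 1.44 and 1.72 for Actb and 0.20 and 0.32 for Gapdh at 2 h, against 0.78 and 1.02 and -0.22 and -0.33 at time 0. Single arrays of 12 h (1.39 and 0.30), 48 h (2.42 and 1.22) and 10.5 days (0.90 and 1.49) were also high for Gapdh, and the other arrays were at most -0.17 for Gapdh. In these bulk samples, fewer cells of a type and less RNA per cell cannot be told apart.

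**Figure D1:**
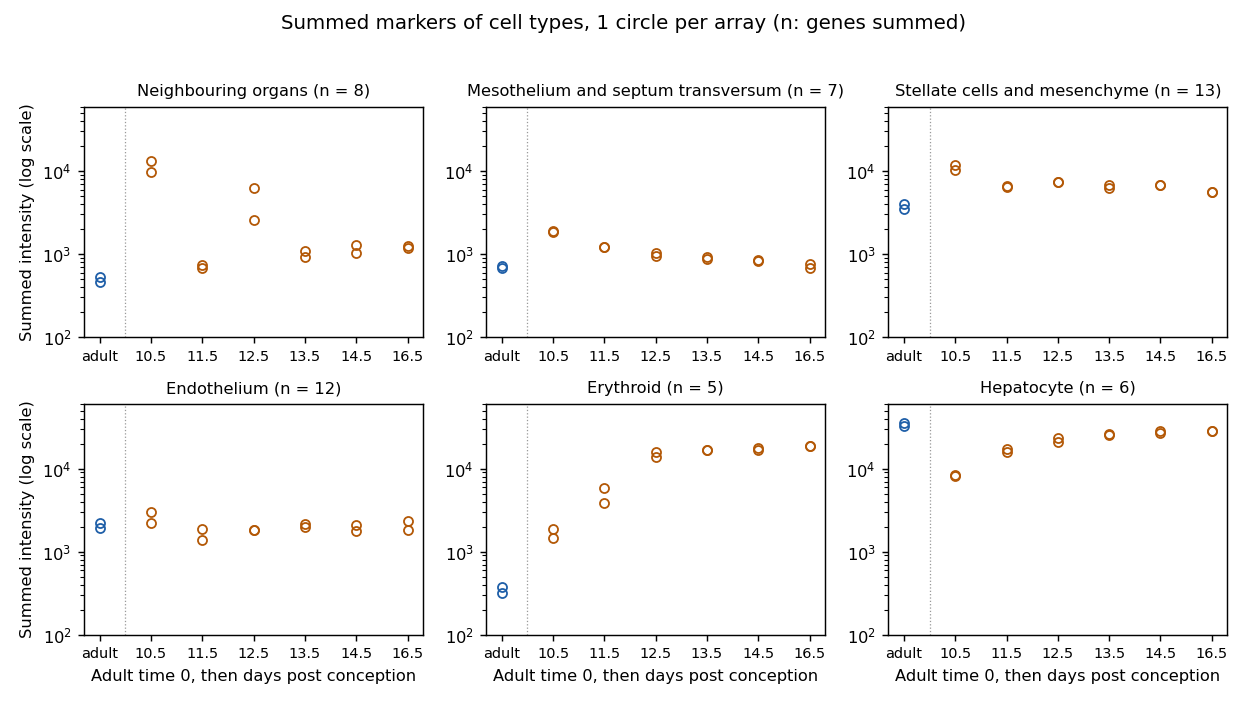
Summed intensity of the markers of 6 cell types (vertical log axis) at adult time 0 and at the 6 embryonic stages (days post conception), 1 circle per array. Neighbouring organs stand at 13134 and 9669 at 10.5 days against 686 and 746 a day later, mesothelium goes down from 1878 and 1835 to 686 and 764, and hepatocyte and erythroid genes are higher at 16.5 than at 10.5 days.

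Promoters were searched for the core of the Tcf/Lef binding site because the Tcf/Lef genes are members and several inhibitors and ligands are known targets of the pathway. The RefSeq table (build GRCm38.p6) holds promoters of 30 of the 45 genes, 37 in all. The core was taken as CTTTGAT or CTTTGAA on either strand within the 250 bases before the start listed for each promoter. It was found in 3 of the 37 promoters (8.11%), and in 7.48% of the 32851 promoters of all genes. The matches lay in promoters listed for Dkk1, Wnt11 and Wnt5b, whose values are given below. Each sequence is shown 5′ to 3′ on the strand of its gene, with the match in capitals: chr19:30549547-30549673 on the minus strand for Dkk1, chr7:98835001-98835111 on the plus strand for Wnt11 and chr6:119449391-119449517 on the minus strand for Wnt5b.
Dkk1: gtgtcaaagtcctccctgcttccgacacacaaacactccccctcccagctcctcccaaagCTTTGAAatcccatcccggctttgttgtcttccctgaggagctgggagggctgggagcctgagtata
Wnt11: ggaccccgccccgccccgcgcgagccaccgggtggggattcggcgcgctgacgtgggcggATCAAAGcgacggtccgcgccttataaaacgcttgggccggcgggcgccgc
Wnt5b: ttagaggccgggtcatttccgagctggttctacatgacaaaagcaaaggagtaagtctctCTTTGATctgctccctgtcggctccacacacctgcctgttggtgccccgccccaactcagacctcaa
In Wnt11 the capitals show the core on the opposite strand. The match ends 111 bases before the start listed for the Dkk1 promoter, 45 before that for Wnt11 and 65 before that for Wnt5b. The Wnt5b match lies inside the RefSeq span of the gene, chr6:119432531-119544824, and so before an inner start. The printed Wnt11 sequence runs past the outermost start of its gene, chr7:98835084. A match of letters is a description and no binding was measured.

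Over the 9 times after partial hepatectomy 6 of the 45 genes differed among the adult groups by the moderated F test, where 17.7% of all genes were called. They were Wnt11, Wnt16, Fzd1, Fzd5, Fzd7 and Fzd10os. The means of these 6 genes lay under the background of the array in every adult group, so their courses are not shown to be changes of RNA. At 1 to 6 h the receptor Fzd7 was lowered and no member was raised (0.945% of all genes called, 0.253% lowered and 0.693% raised). At 12 to 30 h the ligand Wnt16 and the inhibitor Sfrp5 were lowered and none was raised (4.64% called, 2.1% lowered and 2.54% raised). At 48 to 72 h none passed (2.42% of all genes called), while 7 (15.6%) had an unadjusted p under 0.05 in limma, as did 13.4% of all genes. The share of members called over the 9 times was 13.3%. The median of the 45 log2 differences was 0.08 at 1 to 6 h, 0.01 at 12 to 30 h and -0.04 at 48 to 72 h, against 0.00 for all genes in each. Every one of these comparisons uses the same 2 arrays of time 0. Leaving out replicate 1 of 48 h raised the count over the 9 times from 6 to 11. The counts of the 3 periods became 0, 0 and 0 without replicate 1 of time 0, and 2, 1 and 1 without replicate 2. At 48 to 72 h 2 members were called without either array of 48 h, and 1 without either array of 12.5 days.

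Fzd7, a Frizzled receptor that can signal with and without β-catenin, was the only member called at a single time. Its intensity was 155 and 121 at time 0, then 129 and 88.1 after 1 h, 63.5 and 79.5 after 2 h, 57.6 and 49.3 after 6 h, 95.6 and 76.7 after 12 h, 96.6 and 92.7 after 18 h, 113 and 102 after 24 h, 139 and 147 after 30 h, 121 and 80.2 after 48 h, and 91.5 and 90.3 after 72 h. It was thus lowest at 6 h, where both arrays lay well under both of time 0, and back within the range of time 0 at 30 h. The log2 difference from time 0 was -0.82 ± 0.18 (SE) at 2 h (adjusted p = 0.0362 in limma), -1.14 ± 0.18 at 6 h (adjusted p = 0.000728) and -0.59 ± 0.18 at 12 h (adjusted p = 0.0414). The background over all genes was 0.544% at 2 h (0.126% lowered), 1.98% at 6 h (0.967% lowered) and 8.76% at 12 h (4.57% lowered). No member was called at the other times, where the share of all genes was 0.473% (1 h), 7.65% (18 h), 1.17% (24 h), 0.319% (30 h), 1.43% (48 h) and 2.91% (72 h). The number of members with an unadjusted p under 0.05 in limma at those 6 times lay between 4 and 6 (8.89% to 13.3%), against 6.74% to 19.1% of all genes. The 3 calls became 1 without replicate 1 of time 0, without any 1 array of 30 h, 72 h or 14.5 days, and became 11 without replicate 2 of time 0, 10 and 7 without replicate 1 or 2 of 48 h, and 8 without either array of 12.5 days, whose spread enters the shared fit. Over 1 to 6 h the difference was -0.76 ± 0.15 (adjusted p = 0.00817), and without replicate 1 of time 0 it was -0.60 (adjusted p = 0.332). The adult levels lie under the background of the array at all times, and the second Fzd7 probe set (1450043_at) stood between 31.2 and 58.4 in adult liver and was not called over the 9 times (adjusted p = 0.108).

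Fzd5 and Fzd1, also Frizzled receptors, had their highest levels within the first 2 h. Fzd5 was at 64.2 and 54.5 at time 0, 75.5 and 70.7 after 1 h, 105.5 and 85.1 after 2 h, 50.3 and 77.6 after 6 h and 38.9 and 38.4 after 12 h, then between 41.1 and 66.7. Both arrays of 2 h were above, and both of 12 h below, those of time 0, and the F test gave an adjusted p of 0.00612 (0.710 when its probe sets were averaged), although no single time differed from time 0. Fzd1 was at 117 and 114 at time 0, 179 and 137 after 1 h, 121 and 116 after 2 h, 78.6 and 94.8 after 6 h, and between 80.1 and 111 from 12 to 72 h. Both of its arrays of 1 h lay above those of time 0 and every later array from 6 h on below, with an adjusted p of 0.00906 in the F test, 0.0714 without replicate 1 of 1 h and 0.414 when its probe sets were averaged. At 1 h the mesenchyme sum was also higher, at 4954 and 5357 against 3521 and 4013 at time 0. Within it the group mean of Dcn went from 874 at time 0 to 1647 at 1 h, while that of Col3a1 was 400 and 405. The sum was 5070 and 5533 at 72 h, where Fzd1 was at 94.9 and 104. The part of mesenchyme in the Fzd1 level was not tested.

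Wnt16, a ligand that can signal with and without β-catenin, fell after the first 6 h. It was at 267 and 217 at time 0, between 215 and 256 from 1 to 6 h, 175 and 174 after 12 h, 120 and 160 after 18 h, 118 and 113 after 24 h, 127 on both arrays of 30 h, 118 and 154 after 48 h, and 152 and 131 after 72 h. All 8 arrays of 12 to 30 h and all 4 of 48 to 72 h were below both of time 0. The difference was -0.74 ± 0.20 (SE) at 12 to 30 h (adjusted p = 0.0328) and -0.74 ± 0.22 at 48 to 72 h (adjusted p = 0.0781). The call at 12 to 30 h was lost without replicate 1 of time 0 (-0.60, adjusted p = 0.361), without replicate 2 of time 0 (-0.88, 0.102), without replicate 1 of 18 h (0.0510), without replicate 2 of 24 h (0.0566) and without replicate 1 of 30 h (0.0528).

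Wnt11, best known as a ligand of the β-catenin-independent branch, read lowest at 12 h and highest from 24 h on, apart from 1 array of 48 h. It was at 147 and 133 at time 0, between 138 and 195 from 1 to 6 h, 115.1 and 97.6 after 12 h, 154 and 125.03 after 18 h, 225 and 210 after 24 h, 209 and 232 after 30 h, 272 and 133 after 48 h and 222 and 235 after 72 h. The arrays of 12 h were the lowest of the adult series, and those of 24, 30 and 72 h lay above time 0. The F test gave an adjusted p of 0.0368; it was lost in 20 of 43 other settings, with an adjusted p of up to 0.133 (without replicate 2 of 12 h), and no single time differed from time 0.

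Sfrp5, a secreted Wnt inhibitor, read lower on every array after surgery than at time 0. It was at 724 and 472 at time 0 and between 362 and 450 on the 18 arrays after surgery, so that all 18 lay below both of time 0. The arrays of time 0 themselves were far apart. The difference at 12 to 30 h was -0.54 ± 0.14 (SE, adjusted p = 0.0245); without replicate 1 of time 0 it was -0.24 (adjusted p = 0.634). The mean of its 2 probe sets gave -0.20.

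Fzd10os was higher from 12 h on. It was at 63.9 and 77.2 at time 0, between 44.3 and 81.3 from 1 to 6 h and between 82.4 and 122 from 12 to 72 h, with an adjusted p of 0.00823 in the F test. All 12 arrays from 12 h on lay above all of the earlier ones. Its second probe set was not called. Fzd10 itself was between 381 and 553 in adult liver and was not called.

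**Figure D2:**
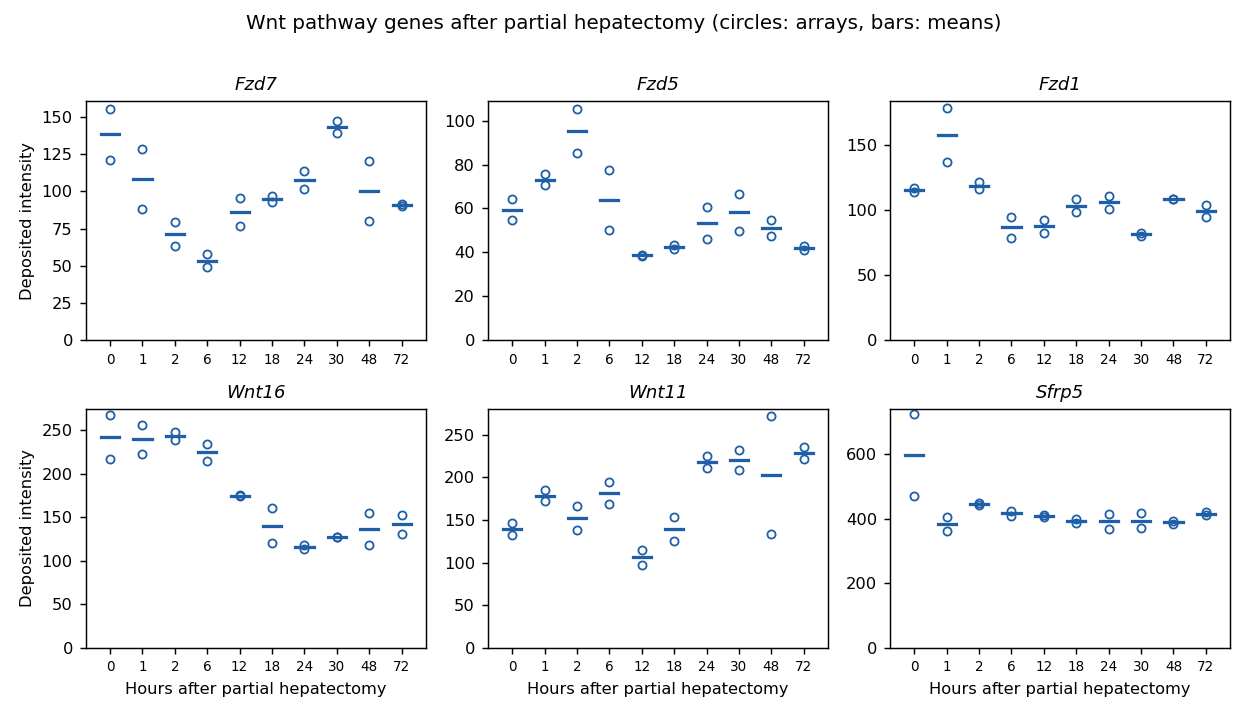
Deposited intensity (vertical axis, from 0) of 6 genes at 0 to 72 h after partial hepatectomy (horizontal axis, hours, not to scale), with circles for the arrays and bars for their mean at each time. Fzd7 dips to 57.6 and 49.3 at 6 h, Wnt16 is lower from 12 h on, Wnt11 is lowest at 12 h, and the Sfrp5 arrays of time 0 (724 and 472) differ widely.

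By the probe set that stands for each gene, the other members did not pass a test after hepatectomy. Among those known from the central vein, Wnt2 ran from 51.6 to 84.1 over all 20 adult arrays, with 59.4 and 66.0 at time 0. Wnt9b ran from 440 to 885, with 641 and 663 at time 0 and 885 and 829 at 1 h. Rspo3 ran from 373 to 1115, with 909 and 1090 at time 0. Their ranges include the values of time 0, and neither a rise nor a fall could be shown with 2 arrays per time. Lef1 stood between 50.6 and 115.3 and Tcf7l1 between 532 and 953. Tested on their own, 8 of the 89 probe sets were called over the 9 times (16.2% of all probe sets with 1 gene). Among them was a Wnt5a probe set that does not stand for its gene. One further probe set of Tcf7l2, the main nuclear partner of β-catenin in adult liver, was called over the 9 times (1429427_s_at, adjusted p = 0.000732): it was at 94.1 and 67.9 at time 0, 120 and 112 after 1 h, 188 and 293 after 2 h, 46.5 and 49.6 after 6 h, and between 30.3 and 122 later. The probe set that stands for Tcf7l2 was at 154 and 137 at time 0 and 129 and 174 after 2 h and was not called, so the probe sets of this gene disagree. The part of the higher 3′ to 5′ ratios of 2 h in the levels of Fzd5, Fzd7 and Tcf7l2 at that time was not tested.

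Over the embryonic stages most of the members that changed fell. The linear change per day was called in 13 of the 45 genes, 2 raised and 11 lowered. Of all genes 27.6% were called, 16.2% raised and 11.4% lowered. The raised members were Wnt7b and Fzd5, and the lowered ones Wnt2, Wnt4, Wnt5b, Rspo1, Fzd1, Fzd2, Fzd3, Fzd7, Sfrp2, Dkk1 and Lef1. The means of Wnt2, Wnt4, Wnt5b, Wnt7b, Rspo1, Fzd3, Dkk1 and Lef1 lay under the background of the array at every stage. Their courses below are therefore not shown to be changes of RNA. Fzd1, Fzd2, Fzd5, Fzd7 and Sfrp2 exceeded it at some stages only. The moderated F test over the 6 stages called 13 as well (20.8% of all genes). The median change per day was 0.00 for the 45 genes and 0.01 for all genes, and the share of members called in the trend, 28.9%, was near that of all genes.

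Much of this rested on the stage of 10.5 days, where the sum for neighbouring organs stood apart. Without that stage 22 members differed from adult time 0 (55.3% of all genes), of which 21 are among the 22 described below, while 8 members were called in the trend (13.5% of all genes), of which 5 were called with it too: Rspo1, Fzd1, Fzd7, Sfrp2 and Dkk1, all lowered. The other 3 were Tcf7l1, Fzd10 and Fzd10os, all raised. The F test without it called 7 members (8.44% of all genes), all of them called with it.

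Of the ligands, Wnt2, which promotes hepatoblast growth, was at 192 and 171 at 10.5 days, 61.5 and 31.0 at 11.5 days and between 19.7 and 48.4 on the 8 arrays from 12.5 days on. The drop was a single step after the first stage. Its change per day was -0.30 ± 0.03 (SE, log2, adjusted p = 1.34e-07), and -0.11 without 10.5 days (adjusted p = 0.0571). Wnt4, a ligand of mesenchyme and mesothelium in several organs, was at 115.1 and 166 at 10.5 days, 148 and 107 at 11.5 days, 75.3 and 121 at 12.5 days, 104 and 55.8 at 13.5 days, 48.6 and 75.1 at 14.5 days and 80.6 and 51.3 at 16.5 days. Its fall was spread over the stages with overlap between neighbours, at -0.18 ± 0.05 per day (adjusted p = 0.00488), and it missed the threshold without 10.5 days (-0.17, 0.0605) and without replicate 2 of 16.5 days (-0.14, 0.0770).

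Wnt5b, a ligand of the β-catenin-independent branch, was at 183 and 144.7 at 10.5 days and between 34.2 and 61.6 on the 10 later arrays. Its change per day of -0.17 ± 0.04 (adjusted p = 0.00126) was -0.01 without 10.5 days (adjusted p = 0.942). Its probe set is of a kind that can match other transcripts, and the Wnt5b probe set without that property gave -0.10 per day (adjusted p = 0.255). Wnt7b rose, from 45.9 and 66.1 at 10.5 days and 42.0 and 36.9 at 11.5 days to between 67.9 and 81.1 on the 8 later arrays, at 0.07 ± 0.02 per day (adjusted p = 0.0205). Wnt7b missed the threshold in 7 of 44 other settings. In limma these included quantile normalization (0.06 per day, adjusted p = 0.0686) and scaling to the 75th percentile (0.06, adjusted p = 0.0600). They also included the fit without 10.5 days (0.08, adjusted p = 0.0642). The others left out arrays, with changes of 0.05 without replicate 1 of 10.5 days and 0.07 and 0.08 without replicates 1 and 2 of 16.5 days.

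Wnt5a, the best known ligand outside the canonical branch, was read differently by its probe sets. The one of highest mean (1456976_at) lay between 44.0 and 60.9 at all stages, with a change per day of 0.01. By contrast 1436791_at was at 132 and 128 at 10.5 days, 27.4 and 41.5 at 11.5 days, 97.2 and 59.2 at 12.5 days, and 12.2 and 5.96 at 16.5 days, a change of -0.37 ± 0.04 per day (adjusted p = 2.03e-07, adjusted over every probe set). A further Wnt5a probe set, 1448818_at, fell by 0.24 per day (adjusted p = 4.85e-06). The high arrays of 1436791_at at 10.5 and 12.5 days are also those with the high sums of neighbouring organs, whose part in it was not tested.

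Of the R-spondins, Rspo1 fell and stayed called without the first stage. It was at 118 and 74.5 at 10.5 days, 45.5 and 65.2 at 11.5 days, 38.1 and 25.5 at 12.5 days, and between 24.7 and 32.3 on the 6 arrays after that, at -0.21 ± 0.03 per day (adjusted p = 8.06e-06), and -0.12 without 10.5 days (adjusted p = 0.0321). All levels lie under the background of the array. Rspo3 by its probe set of highest mean lay between 233 and 1334, with the 2 arrays of 10.5 days at 1234 and 233, and was not called. Its other probe set (1455607_at) fell from 106 and 84.9 at 10.5 days to 41.5 and 44.3 at 16.5 days, at -0.15 ± 0.03 per day (adjusted p = 0.00189).

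The Frizzled receptors held 5 of the calls. Fzd1 showed the steadiest fall: 442 and 505 at 10.5 days, 325 and 431 at 11.5 days, 291 and 285 at 12.5 days, 188 and 229 at 13.5 days, 175 and 182 at 14.5 days and 168 and 163 at 16.5 days. No array was above any array of an earlier stage, and the change was -0.25 ± 0.02 per day (adjusted p = 8.63e-09), or -0.22 without 10.5 days (adjusted p = 7.11e-06). Fzd7 was at 472 and 479 at 10.5 days, 228 and 260 at 11.5 days, 218 and 188 at 12.5 days, 154 and 179 at 13.5 days, 158 and 151 at 14.5 days and 136 and 151 at 16.5 days. Most of its fall lay in the first step, and it changed by -0.24 ± 0.03 per day (adjusted p = 3.01e-07), or -0.14 without 10.5 days (adjusted p = 0.00631). The second Fzd7 probe set, at 23.4 to 52.6, was called the other way, at 0.08 ± 0.02 per day (adjusted p = 0.0122).

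Fzd2, a receptor of both branches, was at 311 and 368 at 10.5 days, 124.8 and 152 at 11.5 days, 122 and 152 at 12.5 days and between 75.2 and 119 on the 6 later arrays. It changed by -0.25 ± 0.07 per day (adjusted p = 0.00922), by -0.13 without 10.5 days (adjusted p = 0.384) and by -0.24 without replicate 1 of 16.5 days (adjusted p = 0.0616). All 3 Fzd2 probe sets fell, by 0.27 (1418532_at) and 0.43 per day (1418533_s_at) for the others. Fzd5 rose, from 99.3 and 151 at 10.5 days and 129 and 146 at 11.5 days to 185 and 171 at 12.5 days and between 187 and 222 on the 6 later arrays. The change was 0.11 ± 0.03 per day (adjusted p = 0.00234), 0.08 without 10.5 days (adjusted p = 0.103) and 0.07 when its probe sets were averaged (adjusted p = 0.324). Fzd3 is described with its probe sets below.

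Among the secreted inhibitors, Sfrp2 fell most of all members when each gene is read by the probe set that stands for it. It was at 323 and 347 at 10.5 days, 161 and 190 at 11.5 days, 280 and 184 at 12.5 days, 89.0 and 147 at 13.5 days, 107 and 99.0 at 14.5 days and 48.4 and 50.0 at 16.5 days. Only 12.5 days broke the descent, and both arrays of 16.5 days lay below every earlier one. The change was -0.38 ± 0.05 per day (adjusted p = 1.52e-06). Dkk1 was at 201 and 192 at 10.5 days, 126 and 166 at 11.5 days, 94.2 and 92.7 at 12.5 days, 94.8 and 87.4 at 13.5 days, 67.1 and 69.8 at 14.5 days and 69.5 and 73.6 at 16.5 days. It fell until 14.5 days and was level after that, at -0.22 ± 0.03 per day (adjusted p = 1.68e-06) and -0.16 without 10.5 days (adjusted p = 0.00197).

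Sfrp1 depended on the probe set. The one of highest mean (1416594_at) lay between 208 and 559, was lowest at 14.5 days (235 and 208) and was not called in the trend (-0.08 ± 0.03, adjusted p = 0.0550), although the F test called it (adjusted p = 0.00569, and 0.0719 without replicate 2 of 14.5 days). By contrast 1428136_at fell from 503 and 500.4 at 10.5 days through 228 and 232 at 11.5 days to 95.6 and 88.0 at 16.5 days, and 1460187_at from 102 and 242 at 10.5 days to 28.2 and 31.6. Their changes per day were -0.33 ± 0.03 (adjusted p = 1.76e-08) and -0.34 ± 0.04 (adjusted p = 1.56e-06). Sfrp4 (143 to 435), Sfrp5 (497 to 782), Dkk2 (12.7 to 54.2), Dkk3 (53.9 to 83.3) and Dkk4 were not called in the trend.

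Of the Tcf/Lef factors, Lef1 was at 76.4 and 69.2 at 10.5 days, 59.8 and 50.8 at 11.5 days, 36.8 and 54.5 at 12.5 days and between 24.7 and 48.9 on the 6 later arrays, at -0.11 ± 0.03 per day (adjusted p = 0.0178). The call was lost without 10.5 days (-0.05, adjusted p = 0.445), without replicate 1 of 10.5 days (-0.10, 0.0615), without replicate 1 of 16.5 days (-0.09, 0.140) and when its probe sets were averaged (-0.08, 0.154). Tcf7l1, which mostly represses target genes, lay between 618 and 1504 with arrays of 10.5 days at 1504 and 877, and was not called. Its other probe set (1450117_at) fell from 511 and 451 at 10.5 days through 235 and 303 at 11.5 days to 163 and 145.2 at 16.5 days, at -0.24 ± 0.03 per day (adjusted p = 5.32e-07). Tcf7l2 lay between 132 and 317 with no trend called.

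**Figure D3:**
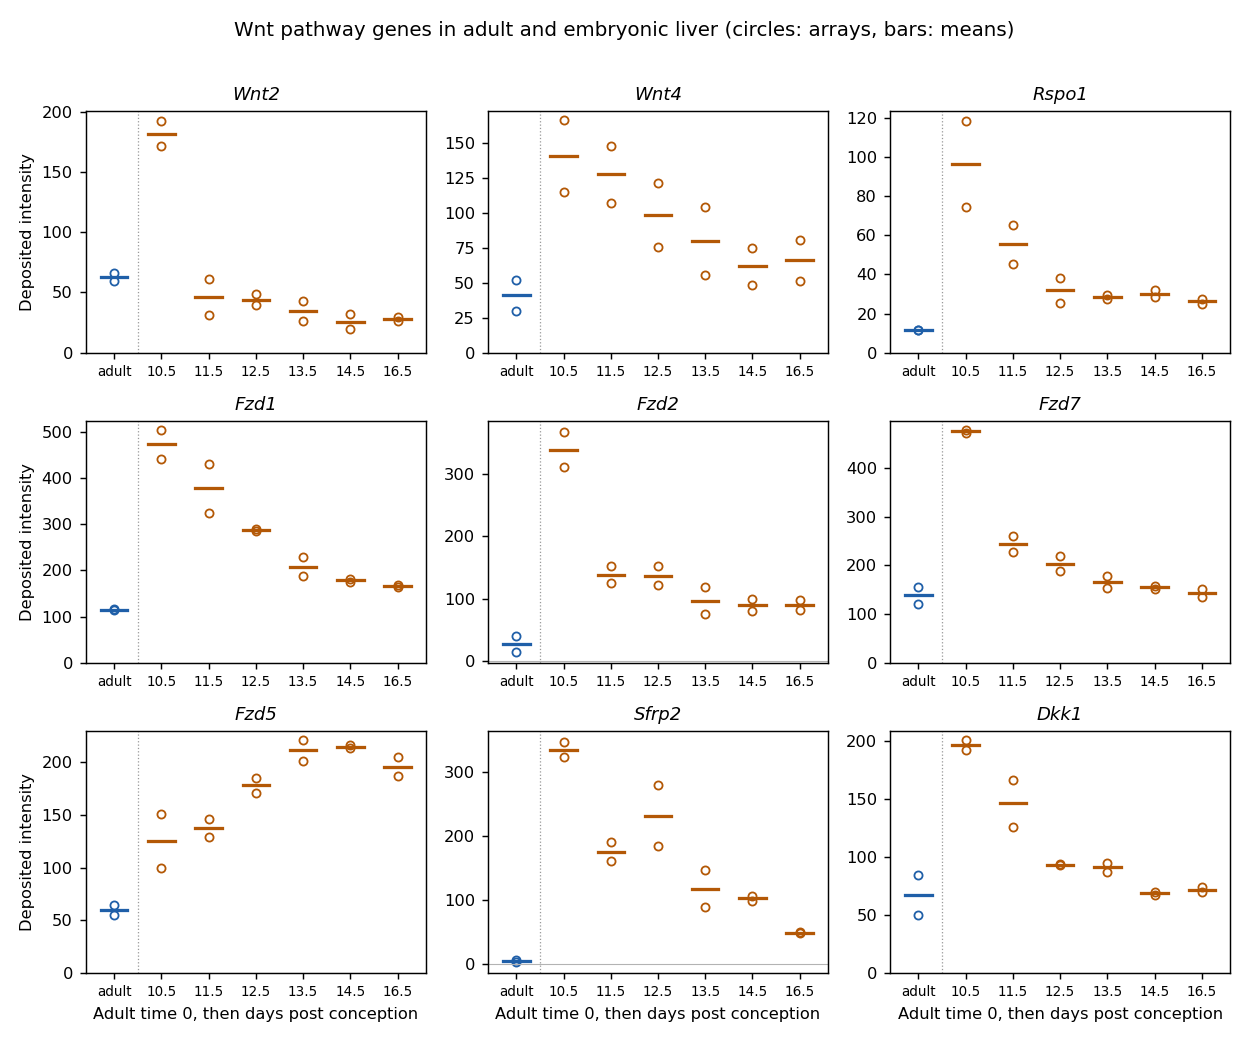
Deposited intensity (vertical axis, from 0) of 9 genes at adult time 0 (blue) and at the embryonic stages of 10.5 to 16.5 days post conception (orange), with circles for the 2 arrays of a group and bars for their mean. All of these but Fzd5 have their highest mean at 10.5 days. Fzd1 falls from 442 and 505 to 168 and 163, and Sfrp2 from 323 and 347 to 48.4 and 50.0, against 3.72 and 5.89 for Sfrp2 at adult time 0.

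The genes that fell did so beside the mesothelium sum, which went from 1878 and 1835 to 686 and 764. Of its 7 genes, Wt1 went from a group mean of 196 at 10.5 days to 31.5 at 16.5 days and Upk3b from 190 to 27.5, while Msln was near 0 at every stage. The mesenchyme sum fell by less after 10.5 days. Other sums rose over the same stages. That of 5 erythroid genes went from 1866 and 1456 at 10.5 days to 18586 and 18900.5 at 16.5 days, against 316 and 375 at adult time 0. The hepatocyte sum went from 8507 and 8174 to 28224 and 28636. The part of these cells in the levels of the Wnt genes was not tested.

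Embryonic liver as a whole differed from unoperated adult liver in 22 of the 45 genes, 10 higher and 12 lower, where 55.1% of all genes were called, 30.5% higher and 24.6% lower. The share of members called was 48.9%. The median log2 difference was -0.12 for the 45 genes and 0.02 for all genes. Higher were Wnt4, Wnt7a, Rspo1, Fzd1, Fzd2, Fzd5, Fzd7, Sfrp2, Dkk1 and Tcf7l1. Lower were Wnt5a, Wnt5b, Wnt7b, Wnt9b, Wnt10a, Wnt11, Wnt16, Fzd3, Fzd4, Sfrp4, Dkk2 and Lef1. Of the higher members, Wnt4, Rspo1 and Dkk1 lay under the background of the array in every group. So did Wnt5a, Wnt5b, Wnt7b, Wnt10a, Wnt11, Wnt16, Fzd4, Dkk2 and Lef1 of the lower ones. The differences of these genes are not shown to be differences of RNA. By family, 2 of the 19 Wnt ligands were higher and 7 lower, while 4 of the 10 Frizzled receptors were higher and 2 lower. Only 4 members had 12 embryonic arrays that did not overlap the 20 adult ones, Sfrp2 above and Wnt10a, Wnt11 and Fzd3 below, where 22.4% of all genes did not overlap, 14.9% above and 7.52% below. Against the mean of the 10 adult groups in place of time 0, 36 members were called, 15 higher and 21 lower, where 76.8% of all genes were called, 39.7% higher and 37.1% lower.

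Sfrp2 gave the largest rise. It was at 3.72 and 5.89 at time 0, under 23.3 on every adult array, with 4 of them listed below 0, and between 48.4 and 347 in the embryo. The difference was 2.94 ± 0.24 (SE, log2, adjusted p = 9.88e-10), which the constant of 16 makes smaller than the ratio of the intensities. Fzd2 was at 15.0 and 40.4 at time 0 and between 75.2 and 368 in the embryo, higher by 1.82 ± 0.37 (adjusted p = 0.00024); the embryonic arrays all lay above time 0, but 1 array of 6 h reached 164.6. The other Fzd2 probe sets gave 1.41 ± 0.21 and 1.54 ± 0.17.

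Fzd5 was at 64.2 and 54.5 at time 0 and between 99.3 and 222 in the embryo, higher by 1.33 ± 0.14 (adjusted p = 4.65e-08). Fzd1 was at 117 and 114 at time 0 and between 163 and 505, higher by 1.08 ± 0.11 (adjusted p = 4.25e-08). For both receptors every embryonic array lay above time 0, and for Fzd5 an array of 2 h (105.5) and for Fzd1 an array of 1 h (179) were the adult arrays that overlapped the lowest of the embryo. Each has a second probe set whose difference was not called, and with the mean of the Fzd5 probe sets the difference was 0.53 (adjusted p = 0.0938).

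Fzd7 was higher by 0.57 ± 0.14 (adjusted p = 0.00128), but its 2 arrays of 16.5 days (136 and 151) lay within the 155 and 121 of time 0, and without replicate 2 of time 0 the difference was 0.41 (adjusted p = 0.0764). Averaged over its 2 probe sets it was 0.20 (adjusted p = 0.0818). Rspo1 was at 11.3 and 11.4 at time 0 and between 24.7 and 118 in the embryo, higher by 1.04 ± 0.15 (adjusted p = 4.30e-06). Dkk1 was at 49.7 and 84.6 at time 0 and higher by 0.56 ± 0.14 (adjusted p = 0.00174), which without replicate 1 of time 0 was 0.25 (adjusted p = 0.232). Its 4 arrays of 14.5 and 16.5 days lay between those of time 0, and the 8 earlier ones above both.

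Wnt4, at 29.9 and 52.2 at time 0, was higher by 0.92 ± 0.24 (adjusted p = 0.00259), and by 0.63 without replicate 1 of time 0 (adjusted p = 0.120). Wnt7a was at 305 and 326 at time 0 and between 370 and 639 in the embryo, higher by 0.60 ± 0.12 (adjusted p = 0.00033). Wnt7a has 2 other probe sets that pointed down without being called, and the mean of all 3 gave -0.01. Tcf7l1 was at 532 and 810 at time 0 and higher by 0.61 ± 0.19 (adjusted p = 0.00954), by 0.32 without replicate 1 of time 0 (adjusted p = 0.323), and by 0.27 after quantile normalization (adjusted p = 0.201). Its other probe set was at 59.6 and 55.8 at time 0 and higher by 1.64 ± 0.14 (adjusted p = 2.64e-09).

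Of the ligands that were lower, Wnt11 was at 147 and 133 at time 0 and between 36.8 and 83.2 in the embryo, a difference of -0.97 ± 0.18 (adjusted p = 9.02e-05). Its lowest adult array, at 97.6, was above all 12 embryonic arrays. Wnt10a was at 56.2 and 52.2 at time 0 and at most 39.3 in the embryo, a difference of -1.37 ± 0.32 (adjusted p = 0.000884), all of it under the background of the array. Wnt16 was at 267 and 217 at time 0 and between 53.5 and 193 in the embryo, a difference of -0.90 ± 0.19 (adjusted p = 0.000422); the operated liver of 24 h, at 118 and 113, lay inside that range.

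Wnt9b, a ligand of the central vein, was at 641 and 663 at time 0 and between 328 and 501 in the embryo, a difference of -0.56 ± 0.14 (adjusted p = 0.00204), while its second probe set gave 0.14 without a call and the mean of both -0.21 (adjusted p = 0.170). Wnt5b was at 154 and 89.2 at time 0 and lower in the embryo, with a difference of -0.75 ± 0.19 (adjusted p = 0.00182), which without replicate 1 of time 0 was -0.40 (adjusted p = 0.179). Wnt5a was at 63.8 and 73.9 at time 0 and lower in the embryo, with a difference of -0.36 ± 0.13 (adjusted p = 0.0228), -0.27 without replicate 2 of time 0 (adjusted p = 0.229), and -0.03 averaged over its 4 probe sets (adjusted p = 0.819). Wnt7b, at 83.8 and 82.96 at time 0, was lower with a difference of -0.32 ± 0.12 (adjusted p = 0.0296), and it missed the threshold without either array of time 0 (0.142 and 0.125) and without 10.5 days (0.0509). Wnt2 was not called with all stages (-0.31, adjusted p = 0.103) and was lower without 10.5 days (-0.64, adjusted p = 0.00194), where it stood above the 59.4 and 66.0 of time 0 at 10.5 days and below both on 9 of the 10 later arrays.

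Of the other lower members, Fzd4, a receptor known for its role in blood vessels, was at 178 and 179 at time 0 and between 100.2 and 158 in the embryo, a difference of -0.44 ± 0.11 (adjusted p = 0.00211). The endothelial sum of 12 genes was 2219 and 1905 at time 0 and between 1382 and 2969 in the embryo. Sfrp4 was at 467 and 474 at time 0 and between 143 and 435 in the embryo, a difference of -0.93 ± 0.21 (adjusted p = 0.000587). Dkk2 was at 67.4 and 52.4 at time 0 and between 12.7 and 54.2 in the embryo, a difference of -0.77 ± 0.29 (adjusted p = 0.0270), a call that was lost without either array of time 0 (0.218 and 0.0693). Lef1 was at 93.1 and 89.2 at time 0 and between 24.7 and 76.4 in the embryo, a difference of -0.80 ± 0.17 (adjusted p = 0.000375), or -0.31 when its probe sets were averaged (adjusted p = 0.231). The sum of 9 genes of lymphocytes, a cell type in which Lef1 is known to be high, was 1278 and 1848 at time 0. It was between 780 and 1150 in the embryo, but its genes did not move together. Cd8a went from a group mean of 592 at time 0 to between 110 and 147 over the stages, and Ms4a1 from 174 to between 15.2 and 48.1. Cd79b and Il7r were also lower at every stage. Cd3e was higher at every stage, at 44.8 at time 0 and between 58.9 and 146 in the embryo. The other genes lay on both sides of time 0. The part of lymphocytes in the Lef1 level was not tested.

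Of the 45 genes, 26 were called in at least 1 of the comparisons described so far (the F tests, the 3 periods, the trend and the embryo), where 66.8% of all genes were, and 19 in none: Wnt1, Wnt2b, Wnt3, Wnt3a, Wnt6, Wnt8a, Wnt8b, Wnt9a, Wnt10b, Rspo2, Rspo3, Rspo4, Fzd6, Fzd8, Fzd9, Fzd10, Dkk3, Dkk4 and Tcf7l2. Their arrays of adult and embryonic liver overlap. Wnt6 ran from 276 to 409 over all 32 arrays, Wnt3 reached at most 28.7, and Wnt3a ran from 122 to 229. Fzd8 ran from 48.6 to 324 in the embryo and from 79.6 to 369 in adult liver, where the arrays of 12 h alone gave 79.6 and 369. Fzd9 was nearest to a call after hepatectomy (adjusted p = 0.0514), at 284 and 405 at time 0 and 464 and 615 after 1 h. Wnt9a, at 39.8 and 27.4 at time 0 and between 49.8 and 103 in the embryo, missed the threshold in the embryo (0.81 ± 0.35, adjusted p = 0.0558).

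**Figure D4:**
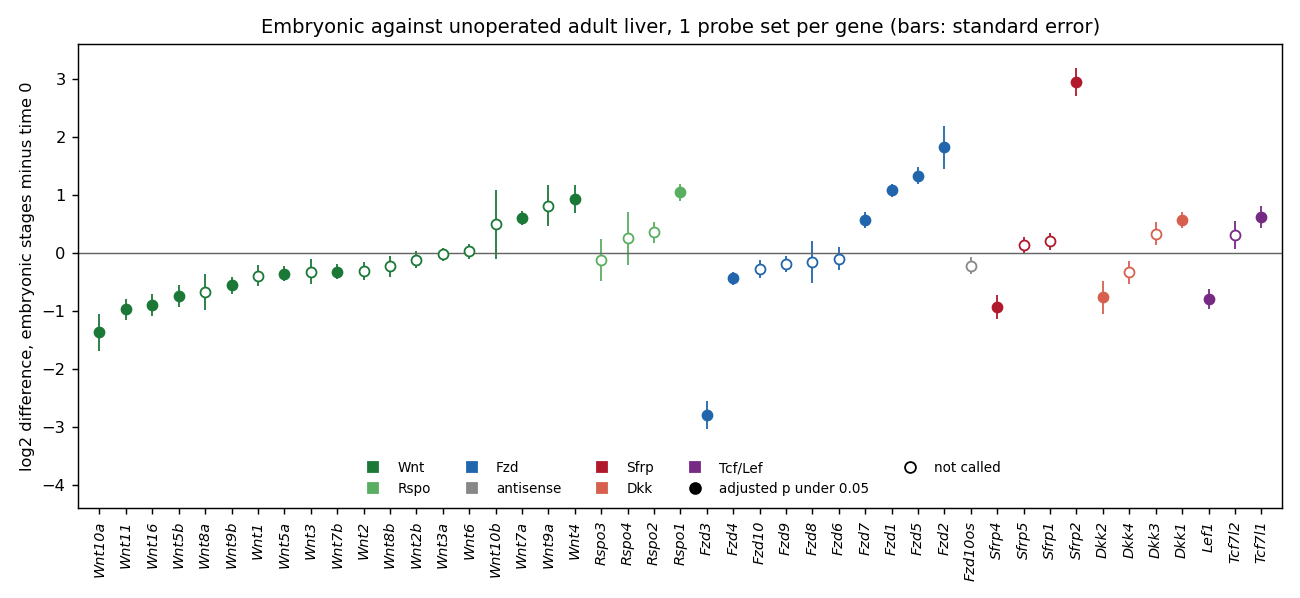
Difference between the mean of the 6 embryonic stages and adult time 0 (vertical axis, log2) for all 45 genes, coloured by family; bars are standard errors and filled circles are adjusted p under 0.05 in limma. Sfrp2 (2.94) and Fzd2 (1.82) are highest and Fzd3 (-2.80) lowest, and filled and open circles occur on both sides of 0.

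Fzd3 shows how far the probe set decides. Its probe set of highest mean (1438101_at) was at 395 and 426 at time 0, between 269 and 509 in all adult liver and between 9.76 and 98.0 in the embryo, a difference of -2.80 ± 0.24 (adjusted p = 2.18e-09). Over the stages it changed by -0.19 ± 0.05 per day (adjusted p = 0.00285), or -0.14 without 10.5 days (adjusted p = 0.112). By contrast 1434788_at was at 21.5 and 16.5 at time 0 and at most 30.0 in adult liver, but at 225 and 207 at 10.5 days, 78.4 and 95.1 at 11.5 days and between 37.6 and 75.8 later. It was higher in the embryo by 1.33 ± 0.13 (adjusted p = 1.43e-08) and fell by 0.31 per day (adjusted p = 3.02e-09). Of the other 4 Fzd3 probe sets, 1421157_at (0.48) and 1450135_at (0.46) were called higher, and the mean over all 6 gave -0.17 (adjusted p = 0.120). Which of these reads the Fzd3 transcript was not tested.

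Tested on their own, 38 of the 89 probe sets differed between embryo and time 0 (52.1% of the 34958 probe sets with 1 gene), and 30 members had at least 1. In 8 members only a probe set of lower mean was called: Wnt8b, Rspo3, Fzd6, Fzd10, Sfrp1, Sfrp5, Dkk3 and Tcf7l2. For Sfrp1 these were 1428136_at (1.18 ± 0.15) and 1460187_at (1.92 ± 0.22), the latter at 7.55 and 15.0 at time 0 and between 28.2 and 242 in the embryo with no overlap. For Dkk3, a divergent member of its family, 1448669_at was at 13.6 and 16.6 at time 0 and between 33.2 and 95.1 in the embryo, higher by 1.19 ± 0.13. In the trend, 27 probe sets were called (25.8% of all), and 6 members had a call only in a probe set of lower mean: Wnt5a, Rspo3, Fzd10, Sfrp1, Dkk3 and Tcf7l1.

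**Figure D5:**
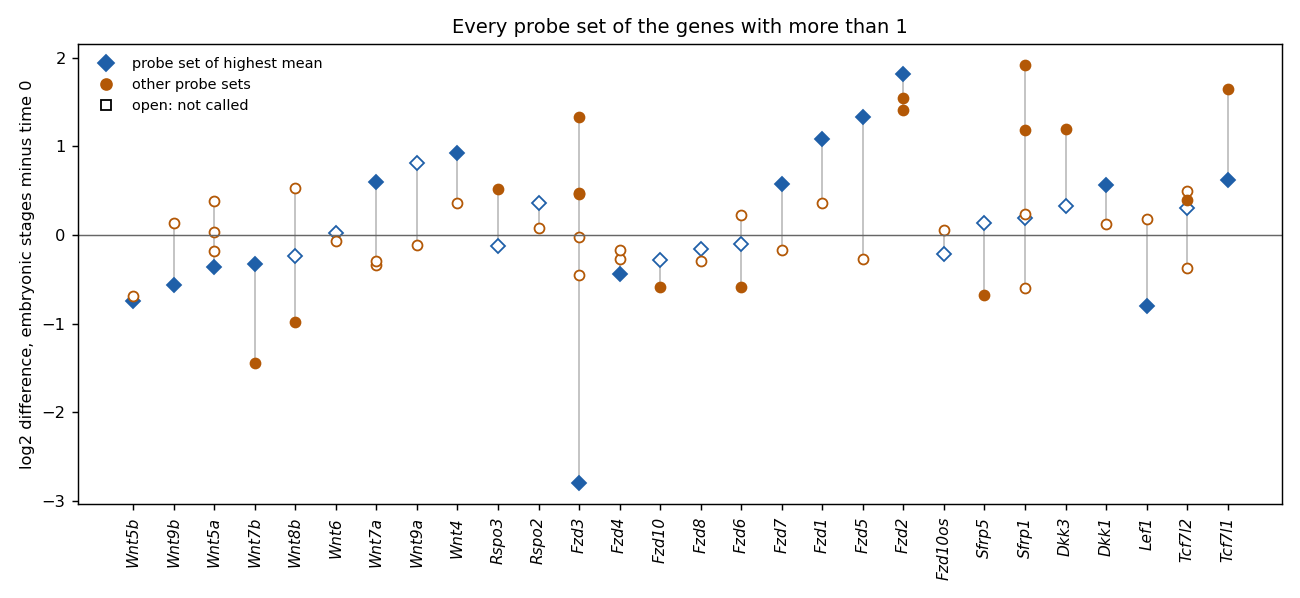
Difference between embryonic stages and adult time 0 (vertical axis, log2) for every probe set of the 28 genes with more than 1; diamonds are the probe sets of highest mean, circles the others, and filled symbols are called. The probe sets of Fzd2 lie close together (1.41 to 1.82), while those of Fzd3 run from -2.80 to 1.33.

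Other genes of the pathway were followed as a list of 82, of which 81 were measured. Over the 9 times after hepatectomy 16 of the 81 were called (17.7% of all genes). At 1 to 6 h 2 were raised (0.945% of all genes called, 0.693% raised). At 12 to 30 h 1 was raised and 3 were lowered (4.64% of all genes called, 2.54% raised and 2.1% lowered). At 48 to 72 h 1 was lowered (2.42% of all genes called). Those raised early were Myc (1.60 ± 0.24) and Oat (0.71 ± 0.16), both known targets of β-catenin and of other pathways. Daam1, which links Dishevelled to the actin skeleton, was at 335 and 344 at time 0, 142 and 182 after 6 h, 119 and 73.9 after 12 h and 226 and 235 after 72 h. It was lowered, with differences from time 0 of -1.14 ± 0.18 at 12 to 30 h and -0.78 ± 0.19 at 48 to 72 h. Dvl1, a Dishevelled adaptor, was lowered at 12 to 30 h (-0.77 ± 0.17), as was Ccnd1 (-0.79 ± 0.23), and Bcl9l, a β-catenin cofactor, was raised (0.48 ± 0.12).

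Over the embryonic stages 30 of the 81 changed with the day, 7 up and 23 down, beside 16.2% of all genes up and 11.4% down. Wls, which carries Wnt ligands to the cell surface, was at 377 and 387 at 10.5 days, 162 and 185 at 11.5 days, 150 and 167 at 12.5 days and 92.5 and 92.8 at 16.5 days, against 42.3 and 30.5 at time 0. Every embryonic array of Wls lay above all 20 adult ones, which reached 53.2, and it changed by -0.28 ± 0.03 per day. Of the Wls levels given here only those of 10.5 days lay above the background of the array, and all adult ones lay under it. The β-catenin cofactor Bcl9 changed by -0.32 ± 0.03 and the corepressor Ctbp2 by -0.30 ± 0.02 per day, while the planar polarity receptor Vangl1 rose by 0.17 ± 0.02.

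Against time 0, 52 of the 81 differed in the embryo, 26 higher and 26 lower (55.1% of all genes called), with a median of -0.16. Of 24 cytoplasmic components 14 were higher and 6 lower, beside 30.5% of all genes higher and 24.6% lower. Among the higher ones were Ctnnb1, which encodes β-catenin (1.17 ± 0.23), Csnk1a1 (1.41 ± 0.12) and Tnks2 (2.37 ± 0.15). Of 19 known β-catenin targets of liver, 4 were higher and 10 lower, beside the same shares of all genes. The lower ones included enzymes of the central vein region, Cyp1a2 and Cyp2e1, which are also enzymes of mature hepatocytes, and Glul (-0.89 ± 0.37). Cyp1a2 was at 1270 and 2125 at time 0 and at most 9.76 in the embryo, and Cyp2e1 at 5294 and 6985 and between 50.1 and 93.2, so both lay under the background of the array there and no fold is given. The higher ones were Myc (2.13 ± 0.22), Nkd1 (1.70 ± 0.12), Axin2 (0.90 ± 0.34) and Znrf3 (0.67 ± 0.13), the last 3 being feedback inhibitors of the pathway. Axin2 was at 52.8 and 128 at time 0 and between 114 and 273 in the embryo, so its embryonic arrays overlapped the higher array of time 0.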

How the data were processed

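The authors deposited 1 intensity per probe set and array on a linear scale, per the file headers and values, from total RNA labelled as biotinylated cRNA per the labels. How they were normalized, and with which software, is not given in the sources used here. The median of an array lay between 69.7 and 79.5, and between 2.54% and 4.02% of its values were negative. Values below 0 were set to 0 and log2(intensity + 16) was analysed.

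Of 45101 probe sets, 34958 are listed with 1 gene in the platform annotation, for 18194 genes. All 45 members matched a RefSeq gene ID. The probe set with the highest mean log2 value stood for a gene. With limma 3.58.1 in R 4.3.3, all 32 arrays entered 1 model of 16 group means (lmFit, eBayes with an intensity trend, 16 residual and 4.76 prior degrees of freedom). The contrasts were the 9 times and 3 periods (6, 8 and 4 arrays) against time 0, the change per day over the stages, their mean against time 0, and F tests. The Benjamini-Hochberg adjustment ran over all genes of each contrast. The fit was tested on simulated data.

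The members, lists and comparisons were chosen with earlier results of these data known. Members called in a comparison (up to 8 by p) and a fixed list of 25 genes were to be named, and of the pathway list those called. Not every one is printed. The number of arrays, 2 per group, limits the precision.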

Additional observations from a re-analysis of the deposited data

How the results depend on the processing

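Replicate numbers did not pair the samples: over 120 pairs of groups the correlation of same-numbered deviations ran from -0.359 to 0.555, with 17 above 0.1. With the replicate number as a block no count of calls moved by more than 1.5 times: 6 over the 9 times, 13 over the stages, 13 in the trend and 22 in the embryo. No count over the stages or in the embryo moved by more than that when any 1 array was left out (11 to 15, 11 to 15 and 18 to 23). The 27 members under the background in every group were not tested in the setting with only genes above background. Of the 57 calls of named members, 20 were kept in every setting in which the member was tested. Of the 2548 results of such calls under other settings, 2437 kept direction and call, 110 missed the threshold and 1 turned: Wnt7a in the embryo, -0.0079 with the mean of its probe sets.

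Leaving out 1 array gave 4 to 11 calls over the 9 times (11 without replicate 1 of 48 h), 1 to 11 at single times, 0 to 2 at 1 to 6 h, 0 to 2 at 12 to 30 h and 0 to 2 at 48 to 72 h. The count of calls at single times, 3, was 5 with a constant of 64, 6 after quantile normalization and 0 in a fit of only the arrays compared. That fit gave 0 calls at 1 to 6 h and 0 at 12 to 30 h. At 12 to 30 h, array weights gave 0, and the mean of all probe sets and the background filter 1 each. At 48 to 72 h, 1 call appeared with a constant of 64, 1 after scaling to the 75th percentile, 2 after quantile normalization and 1 without the 4 arrays of high 3′ to 5′ ratio. With only genes above background, fewer members are tested, and 6 were called over the stages, 7 in the trend and 10 in the embryo. Without 10.5 days the counts were 7, 8 and 22. The mean of the 10 adult groups in place of time 0 gave 36 calls in the embryo, 15 higher and 21 lower, with 76.8% of all genes called. The causes were not tested. The settings without 10.5 days, without those 4 arrays and with every probe set on its own were chosen after seeing the data. Those 4 arrays were replicate 2 of 2 h, 12 h and 48 h and replicate 1 of 10.5 days. Replicate 1 of 2 h, also high at 1.44 for Actb and 0.20 for Gapdh, was kept. Most members lie near or under the background, and 2 arrays per group leave small changes undetectable.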
